A study of Mus musculus with 60 samples.

Results

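The fibroblast growth factor (Fgf) ligands and the bone morphogenetic protein and growth differentiation factor (Bmp and Gdf) ligands are for the most part secreted proteins. Of their genes, 38 were examined out of 21911 protein-coding genes of the mouse. The list was drawn up by name, with 20 Fgf genes (Fgf1 to Fgf12, Fgf14, Fgf15, Fgf17, Fgf18 and Fgf20 to Fgf23) and 18 Bmp and Gdf genes (Bmp2 to Bmp7, Bmp8a, Bmp8b, Bmp10, Gdf2, Gdf3, Gdf5, Gdf6, Gdf7, Gdf9, Gdf10, Gdf11 and Gdf15). No measured value entered the choice, although results of these data were known when it was made. The start of each gene and the stretch between its ends were compared with lists of regions rich in H3K27me3 (trimethylated lysine of the histone H3 tail), and with lists of regions rich in a tagged histone H3.

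The cells were C3H 10T1/2, a line of mouse mesenchymal progenitors, and they received no further treatment. All groups carried a lentiviral transgene for human H3.1 with C-terminal HA and FLAG tags under the EF1 promoter, as pools selected with puromycin, and all kept their own H3 genes. The tagged H3 was wild type in H3WT cells, which served as control, and had 1 arginine changed to cysteine in H3R2C, H3R8C, H3R17C and H3R26C cells. CUT&RUN, which cuts out and sequences the DNA around the sites an antibody binds, gave 60 samples (5 genotypes, 4 antibodies or controls, 3 labelled replicates each), and the 30 samples of anti-H3K27me3 and anti-HA were used.

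H3K27me3 is set by Polycomb Repressive Complex 2 (PRC2) and lies over genes that are kept silent, often over the start and much of the body of genes for developmental regulators and signals. Most Fgf ligands act through receptor tyrosine kinases, and most Bmp and Gdf ligands act through serine/threonine kinase receptors and Smad proteins. The listed Fgf genes also include Fgf homologous factors such as Fgf12, which stay inside the cell. Both families direct growth, patterning and the choice of skeletal, fat and other mesenchymal fates, and most members are made only in particular tissues and stages.

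In 9 of the 10 groups of genotype and antibody, the lists of replicates 1 and 2 held identical values, and for H3K27me3 in H3R17C it was replicates 2 and 3. Identical lists were counted once, and H3R17C replicate 1 was left out of the H3K27me3 comparisons because its file was named for another mark. This left 9 lists for H3K27me3 (2 for each genotype and 1 for H3R17C) and 10 for HA. A list of H3K27me3 held 20077 to 24598 peaks, with a median peak width of 1.90 to 3.75 kb, and peaks lay over 7.62% to 11.9% of all gene starts. Read totals were not used here, so the spread between the independent lists is the only measure of precision. No RNA was examined, and fewer cells with the mark and less mark per cell cannot be told apart in these pools. The lists hold no expression, so the labelled cell type could be checked only through the mark. A start peak in any H3K27me3 list was found for 0 of 8 mesenchymal genes (Col1a1, Prrx1, Pdgfra and others) and 0 of 6 housekeeping genes. Of all 21911 protein-coding genes, 18086 likewise had none, so these counts lie near those of genes in general. Of 8 genes of other lineages, 6 had a start peak in both H3WT lists, against 8.86% of all genes. Of those 6, 5 were lower in H3R2C than in H3WT in the test described below, where 17.9% of all windows were. These lists were drawn up with results of these data known.

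The DNA just before the start differs widely between the ligand genes whose H3K27me3 values the results turn on. The 250 bases upstream of the RefSeq start (GRCm38.p6, the build of mm10) are shown for the 5 genes with the lowest adjusted p below that had an entry in the promoter table, on the strand of the gene, with each CG dinucleotide in capitals, since starts covered by PRC2 in mammals are often rich in CG. Of the 38 genes, 26 had an entry. Gdf10 lies at chr14:33923337-33923586 on the plus strand, Fgf12 at chr16:28753244-28753493 on the minus strand, Fgf3 at chr7:144838362-144838611, Fgf23 at chr6:127072652-127072901 and Bmp10 at chr6:87428744-87428993, the last 3 on the plus strand.
Gdf10: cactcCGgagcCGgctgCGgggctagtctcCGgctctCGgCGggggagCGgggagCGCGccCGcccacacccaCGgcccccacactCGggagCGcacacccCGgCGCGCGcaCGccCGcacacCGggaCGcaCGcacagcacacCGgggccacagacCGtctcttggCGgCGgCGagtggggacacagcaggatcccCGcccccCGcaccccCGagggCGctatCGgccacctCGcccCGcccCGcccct
Fgf12: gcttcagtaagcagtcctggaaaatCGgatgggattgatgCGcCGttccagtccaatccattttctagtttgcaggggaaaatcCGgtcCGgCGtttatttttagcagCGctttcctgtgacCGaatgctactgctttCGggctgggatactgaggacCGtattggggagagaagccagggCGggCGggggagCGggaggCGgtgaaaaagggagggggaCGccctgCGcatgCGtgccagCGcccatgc
Fgf3: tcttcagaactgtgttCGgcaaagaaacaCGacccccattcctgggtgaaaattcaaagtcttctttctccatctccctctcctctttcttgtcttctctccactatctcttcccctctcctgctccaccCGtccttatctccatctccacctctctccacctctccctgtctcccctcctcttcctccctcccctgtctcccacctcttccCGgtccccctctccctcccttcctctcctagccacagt
Fgf23: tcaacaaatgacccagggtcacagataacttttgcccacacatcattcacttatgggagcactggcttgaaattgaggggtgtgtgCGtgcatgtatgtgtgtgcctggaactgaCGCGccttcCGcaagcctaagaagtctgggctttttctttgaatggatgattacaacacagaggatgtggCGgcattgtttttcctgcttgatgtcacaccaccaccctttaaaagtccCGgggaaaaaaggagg
Bmp10: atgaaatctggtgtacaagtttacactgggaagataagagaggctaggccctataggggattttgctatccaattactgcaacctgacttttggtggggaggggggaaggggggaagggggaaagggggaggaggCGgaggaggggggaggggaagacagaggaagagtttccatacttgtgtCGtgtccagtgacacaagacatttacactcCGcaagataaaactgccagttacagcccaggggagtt
Gdf10 had 35 CG pairs in this stretch, Fgf12 had 18, Fgf23 had 6, Fgf3 had 4 and Bmp10 had 3. Of the 26 entries, 22 lay within 1 kb of the gene start used in the comparisons. The RefSeq start of Fgf3 lies 529 bp and that of Fgf12 lies 175 bp from that start, and the other 3 shown coincide with it. Over windows of 300 bases, the 5 genes with an entry among the 7 with an H3K27me3 peak over the start in both H3WT lists had a median of 14 CG pairs (range 3 to 42). The 15 with an entry among the 23 with no start peak in any list had a median of 12 (range 1 to 47), so the ranges overlapped almost completely, and the median over all genes with an entry was 14.

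A start was scored as carrying H3K27me3 where a peak overlapped the window of 1 kb on either side of the gene start. Of the 38 ligand genes, 3 had such a peak in all 9 lists, 12 had one in at least 1 list but not in all, and 23 had none. The 3 constant ones were Fgf3, Fgf9 and Gdf6. The variable ones were 7 Fgf genes (Fgf4, Fgf5, Fgf8, Fgf11, Fgf12, Fgf14 and Fgf23) and 5 Bmp and Gdf genes (Bmp3, Bmp7, Bmp10, Gdf7 and Gdf10). A start peak in at least 1 list was found for 39.5% of the ligand genes and for 17.5% of all protein-coding genes, and a start peak in every list for 7.89% and 3.91%.

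**Figure D1:**
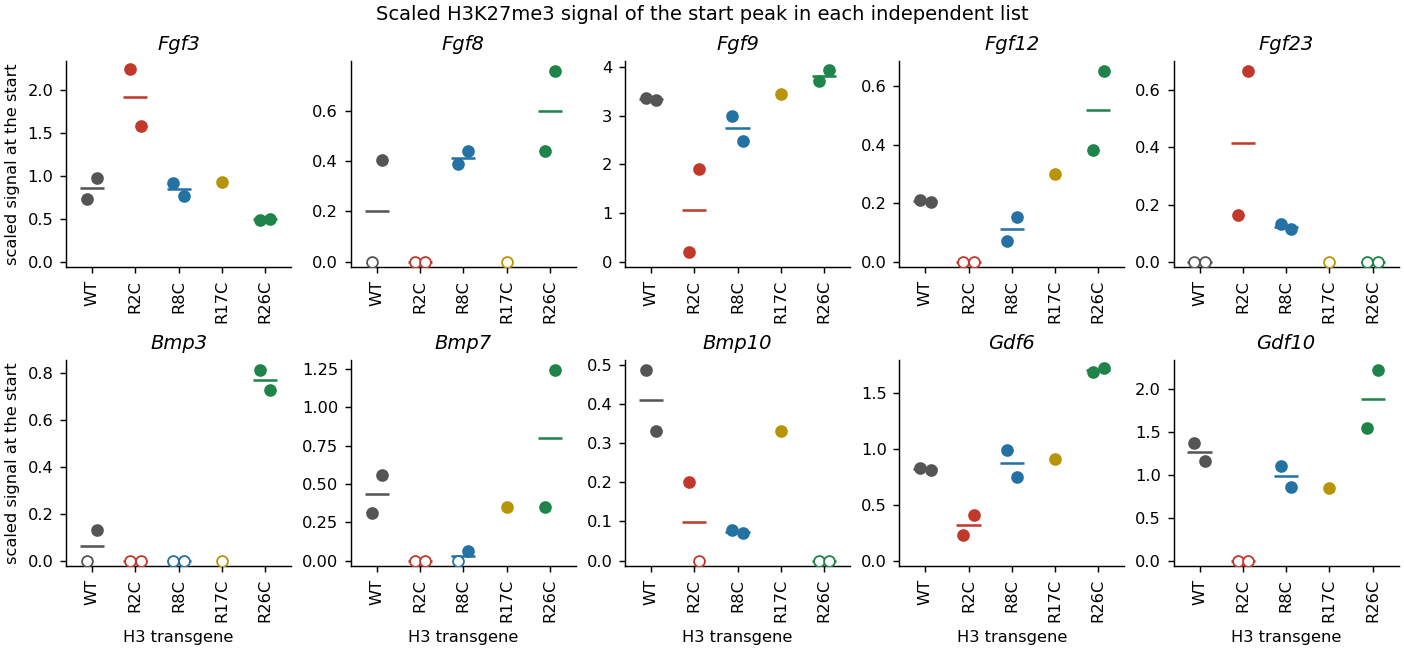
Scaled H3K27me3 signal over the start (y axis, in units of a typical covered start) of the 10 ligand genes tested below, by H3 transgene (x axis), with 1 point per independent list, hollow where no peak was called, and a bar at the mean of 2 lists. Fgf9 is the highest in H3WT at 3.36 and 3.33, Gdf10 has no peak in either H3R2C list, and Bmp3 has a peak in both lists of H3R26C only.

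In the control cells, H3WT, 7 of the 38 ligand genes had a start peak in both lists (Fgf3, Fgf9, Fgf12, Bmp7, Bmp10, Gdf6 and Gdf10), against 8.86% of all genes. In H3R2C it was 4 (Fgf3, Fgf9, Fgf23 and Gdf6), against 6.98% of all genes. In H3R8C it was 8 (Fgf3, Fgf8, Fgf9, Fgf12, Fgf23, Bmp10, Gdf6 and Gdf10), against 9.68%. The single list of H3R17C held the same 7 as H3WT, against 8.84%. In H3R26C it was 8 (Fgf3, Fgf8, Fgf9, Fgf12, Bmp3, Bmp7, Gdf6 and Gdf10), against 8.46%. Fgf3, Fgf9 and Gdf6 were therefore shared by all genotypes, while Bmp and Gdf genes made up 4 of 7 in H3WT and 1 of 4 in H3R2C.

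The share of starts with a peak was set out separately for both families, as a description with no test. In H3WT, 22.5% of Fgf starts and 25.0% of Bmp and Gdf starts had a peak on average, a difference of -2.50 ± 0.393 percentage points (SD, n = 2 lists). In H3R2C the shares were 17.5% and 8.33%, a difference of 9.17 ± 0.393 points. In H3R8C they were 30.0% and 19.4%, with a difference of 10.6 ± 3.93 points. In both lists of H3R2C and of H3R8C the Fgf share was above the Bmp and Gdf share, and in both lists of H3WT it was below. In H3R17C the single list gave 15.0% and 22.2%, and in H3R26C both shares were 25.0% on average, with a difference of 0 ± 3.93 points. A single start is 5 points of the Fgf share and 5.56 points of the Bmp and Gdf share, so these differences amount to a few genes. The order depended on which starts were counted. With every annotated transcript start in place of the gene start, the Fgf share was the higher one in all 5 genotypes, by 7.50 points in H3WT and 23.1 points in H3R8C. With a window of 2.5 kb on either side, the difference in H3R2C was 0.556 points.

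**Figure D2:**
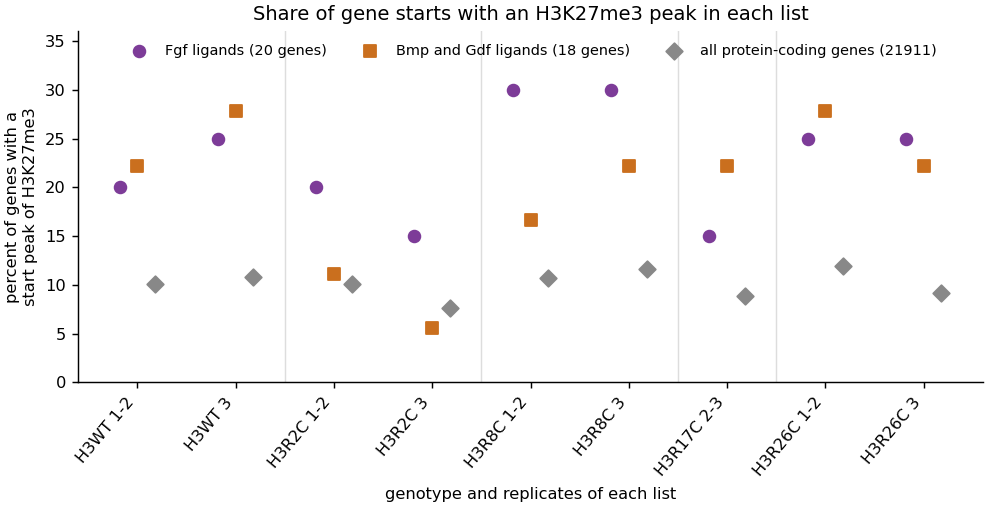
Percent of the 20 Fgf starts (circles), the 18 Bmp and Gdf starts (squares) and all protein-coding gene starts (diamonds) with an H3K27me3 peak within 1 kb, for each independent list. The Bmp and Gdf share is 22.2% and 27.8% in the H3WT lists and 11.1% and 5.56% in the H3R2C lists.

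The percent of the gene body covered by peaks gave a second view of the same lists. Averaged over the 18 Bmp and Gdf genes, cover was 9.35% ± 1.33 in H3WT, 3.73% ± 0.272 in H3R2C, 6.83% ± 0.552 in H3R8C and 12.0% ± 4.49 in H3R26C (SD, n = 2 lists each), and 5.65% in the 1 list of H3R17C. Averaged over the 20 Fgf genes, it was 14.6% ± 5.07 in H3WT, 15.1% ± 3.70 in H3R2C, 18.5% ± 0.442 in H3R8C and 16.6% ± 1.08 in H3R26C, and 13.8% in H3R17C. Both H3R2C lists had lower Bmp and Gdf cover than every other list, while for the Fgf genes the H3R2C values, 17.7% and 12.5%, lay between the H3WT values, 11.0% and 18.2%. The Bmp and Gdf means rested on few genes. From H3WT to H3R2C mean cover fell most at Gdf10 (77.5% to 19.4%), then at Bmp10 (49.3% to 34.3%) and Gdf6 (24.6% to 13.4%). Bmp3, Bmp6 and Bmp7 had little cover in H3WT and none in H3R2C, and the other Bmp and Gdf genes had none in either. Over all protein-coding genes the mean cover was 5.92% and 6.22% in H3WT and 7.08% and 4.74% in H3R2C.

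**Figure D3:**
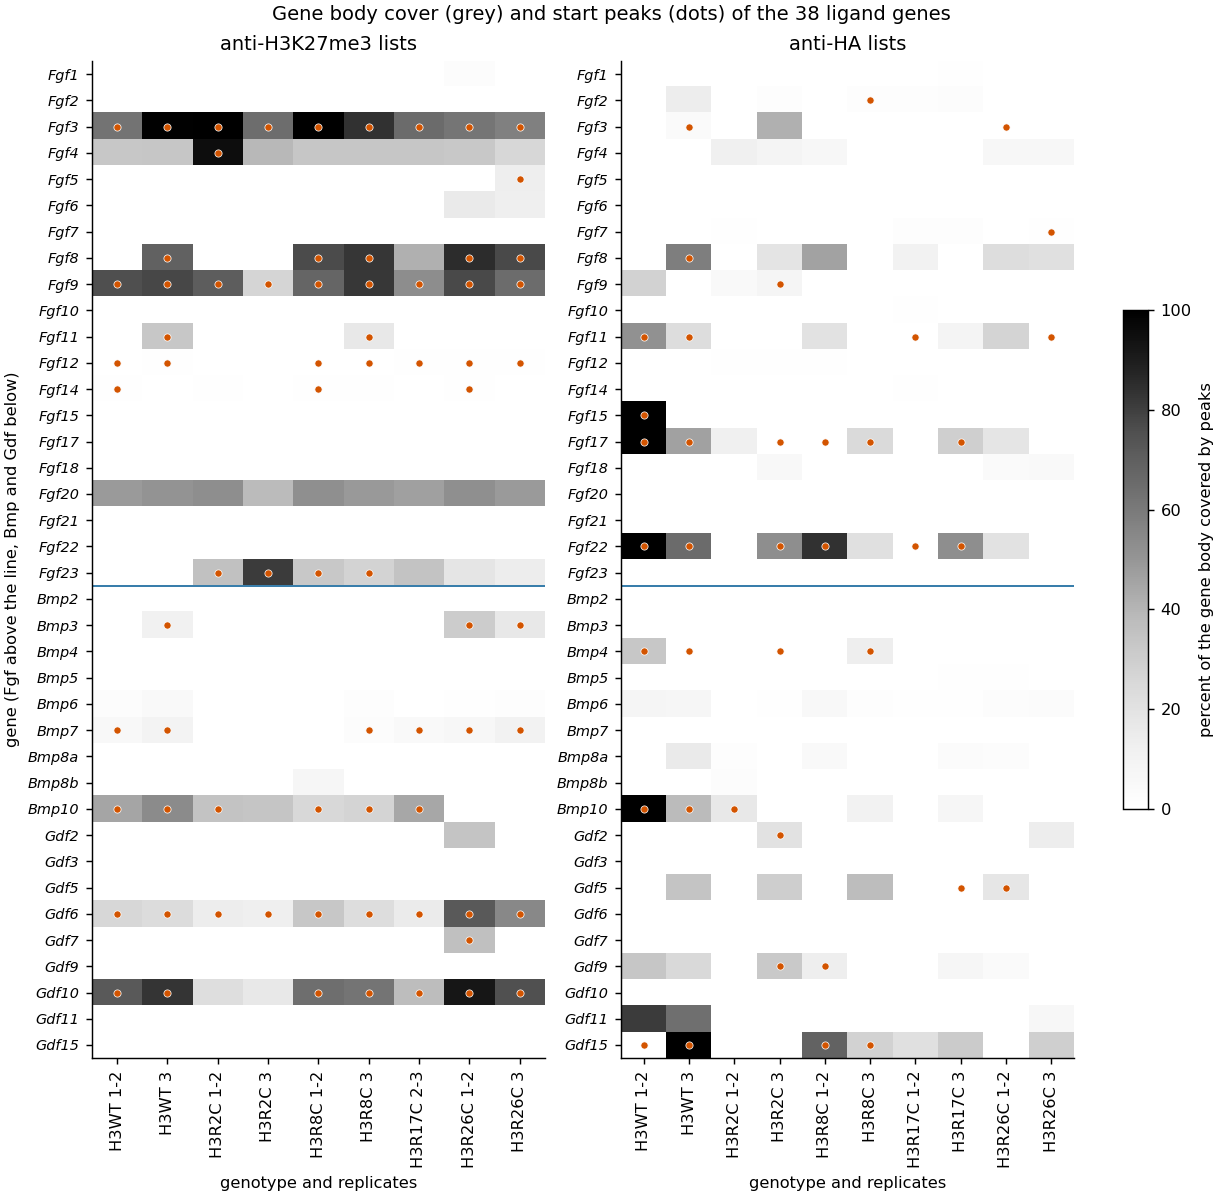
Percent of the gene body covered by peaks (grey scale, 0 to 100%) for each of the 38 ligand genes (rows) in each independent list (columns), for anti-H3K27me3 on the left and anti-HA on the right, with a dot where a peak lay over the start. Gdf10 is covered over 72.0% and 83.0% in H3WT and 22.1% and 16.7% in H3R2C, and Bmp10 is covered in every list but those of H3R26C.

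For the amount of mark, the total signal that the peak caller gave each peak (coverage summed over its length) was added over the peaks at a start and divided by the median over the 886 start windows that had a peak in every list of the fit. A scaled signal of 1 is therefore a typical covered start, and 0 means that no peak was called. The lowest scaled signal of a called peak was 0.0612 to 0.136, depending on the list, so weaker enrichment was not detectable. This signal grows with the width of a peak as well as with its height. Differences were tested with limma on log2(scaled signal + 0.25) over 2812 start windows, those with a peak in both lists of at least 1 genotype, with Benjamini-Hochberg adjustment over all of them and a threshold of 0.05. Fold changes on this scale understate the change at weak starts. H3R17C, with 1 list, took no part in the tests. Of the ligand genes 10 entered (Fgf3, Fgf8, Fgf9, Fgf12, Fgf23, Bmp3, Bmp7, Bmp10, Gdf6 and Gdf10). Bmp3 entered only through its peaks in H3R26C, Fgf23 only through H3R2C and H3R8C, and Fgf8 only through H3R8C and H3R26C. Bmp7 entered only through H3WT and H3R26C, and Bmp10 only through H3WT and H3R8C. Gdf10 and Fgf12 entered through every tested genotype but H3R2C. A difference between groups was thus built into the entry of Bmp3, Fgf23 and Fgf8, and in part into that of Bmp7, Bmp10, Gdf10 and Fgf12. Only Fgf3, Fgf9 and Gdf6 had a start peak in both lists of every tested genotype. The p-values measure the spread between these lists, and every comparison against H3WT used the same 2 H3WT lists. Every list with no peak took the same value, log2(0.25), so a group with no peak in either list added no spread. This was so for Bmp3, Fgf23, Fgf8, Bmp7, Bmp10, Gdf10 and Fgf12, whose standard errors and p-values can be too small.

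In H3R2C against H3WT, the summed H3K27me3 signal of the start peaks fell at Gdf10, Gdf6 and Fgf12 and was higher at Fgf3 and Fgf23. For Fgf3 the peak was wider, while the signal close to the start was not higher (below), and Fgf23 had entered the test through H3R2C and H3R8C, where it was high. Gdf10 and Fgf12 had entered through the other tested groups and not through H3R2C. Of the 10 tested ligand genes 3 were lower, where 17.9% of all windows were, and 2 were higher, where 11.3% of all windows were. Of 5 Bmp and Gdf genes, 2 were lower and 0 higher, and of 5 Fgf genes, 1 was lower and 2 were higher. At an unadjusted p under 0.05 by limma, 4 were lower and 0 higher among the Bmp and Gdf genes and 2 were lower and 2 higher among the Fgf genes, where 24.5% of all windows were lower and 16.7% higher. The difference between the families was not tested. The median log2 difference was -0.96 for the 5 Bmp and Gdf genes, -0.69 for the 5 Fgf genes and -0.09 for all windows.

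Gdf10 (chr14:33923587-33937983, plus strand) encodes a divergent member of the Bmp family, also known as Bmp3b, and its start is the CG-rich one shown above. Its scaled signal was 1.37 and 1.16 in the H3WT lists, 1.10 and 0.860 in H3R8C, 0.843 in H3R17C and 1.54 and 2.22 in H3R26C. No peak reached the start in either H3R2C list, and both lie below every other list. The log2 difference of H3R2C from H3WT was -2.59 ± 0.25 (SE, adjusted p = 0.00118, limma). The lower H3WT value was 8.52 times the lowest signal of a called peak in H3R2C (the higher of its 2 lists). Such a ratio uses the signal of the whole peak and is not a bound on the change at the start itself. The peak over the start spanned 16.1 and 15.3 kb in H3WT and 8.35 kb in H3R17C, and in H3R2C the nearest peaks began 2.19 and 2.24 kb from the start. Part of the gene stayed covered in H3R2C, 22.1% and 16.7% of its body against 72.0% and 83.0% in H3WT. The call was kept in all 8 fits that left out 1 list, with adjusted p of at most 0.0117 by limma; in such fits the single list left in a group is assumed to vary like the others. Gdf2, which encodes Bmp9 and whose gene lies 3.06 kb from Gdf10, had no start peak in any list, and its body was touched only in H3R26C replicates 1 and 2, over 34.1%.

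Gdf6 (chr4:9844372-9862345, plus strand), a ligand known for its part in joint and skull formation, had a start peak in every list. The scaled signal was 0.826 and 0.810 in H3WT, 0.227 and 0.412 in H3R2C, 0.993 and 0.747 in H3R8C, 0.906 in H3R17C and 1.69 and 1.72 in H3R26C. The H3R2C lists were the lowest and the H3R26C lists the highest, with no overlap with the others. The difference of H3R2C from H3WT was -0.93 ± 0.25 on the log2 scale (adjusted p = 0.0365, limma), and it was kept in 1 of the 8 fits that left out a list (without H3R2C replicate 3, where adjusted p = 0.0164) and lost in 7, with adjusted p of 0.0529 to 0.116 by limma. With the replicate number as a block the call was also lost (adjusted p = 0.0596). Peaks over the start spanned 7.75 and 7.30 kb in H3WT and 4.75 and 2.85 kb in H3R2C.

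Fgf12 (chr16:28160098-28753068, minus strand) encodes a member of the Fgf homologous factors, which stay inside the cell and bind voltage-gated sodium channels. Scaled signal was 0.210 and 0.206 in H3WT, 0.0712 and 0.153 in H3R8C, 0.301 in H3R17C and 0.382 and 0.654 in H3R26C, with no start peak in either H3R2C list. The H3R2C lists were thus below all others, and the nearest peaks in H3R2C lay 281 and 188 kb from the start. The log2 difference was -0.87 ± 0.24 (adjusted p = 0.0412, limma), and the lower H3WT value was 1.52 times the lowest signal of a called peak in H3R2C. The call was kept without either H3R26C list and lost in the other 6 leave-one-out fits, with adjusted p of 0.0732 to 0.142. The median difference of the 59 tested windows on chromosome 16 was -0.35, against -0.09 over all windows, and the part of this in the value for Fgf12 was not tested.

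Fgf3 (chr7:144838083-144844436, plus strand), a secreted ligand of the inner ear and other embryonic signalling centres, had a start peak in every list. Its scaled signal was 0.730 and 0.973 in H3WT, 2.24 and 1.57 in H3R2C, 0.915 and 0.767 in H3R8C, 0.929 in H3R17C and 0.488 and 0.493 in H3R26C. Both H3R2C values were above those of all other lists. The log2 difference of H3R2C from H3WT was 0.96 ± 0.25 (adjusted p = 0.0329, limma), and it followed the length of the peak, which was 21.9 and 10.2 kb in H3R2C and 6.25 and 8.70 kb in H3WT. With the maximum signal of the peak in place of its sum, the difference was -0.11, and with the signal inside the 2 kb window alone it was -0.017, so the direction did not hold for the height of the mark near the start. The call was kept in 2 of 8 leave-one-out fits (without H3R2C replicate 3 and without H3R26C replicates 1 and 2) and lost in 6, with adjusted p of 0.0535 to 0.126.

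The longest Fgf3 peak, chr7:144823701-144845600 in H3R2C replicates 1 and 2, began 14.4 kb upstream of the start. Fgf4, a ligand of the early embryo whose gene lies 2.93 kb from Fgf3, had a start peak in that list only, with a scaled signal of 0.721. Its body was covered over 95.2% in that list and 25.7% to 38.8% in the other 8. Fgf15, whose gene lies 31.3 kb from Fgf4, had neither a start peak nor cover in any list.

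Fgf23 (chr6:127072902-127081408, plus strand), the hormone of phosphate balance made by bone cells, gained a start peak in H3R2C. In these cells the scaled signal was 0.163 and 0.669, against 0.131 and 0.114 in H3R8C, and no start peak was called in H3WT, H3R17C or H3R26C. The log2 difference of H3R2C from H3WT was 1.30 ± 0.35 (adjusted p = 0.0369, limma), but a value above H3WT was built into the entry of Fgf23. The lower H3R2C value was 1.93 times the lowest signal of a called peak in H3WT. With all windows that had a peak in any list, the call was lost (adjusted p = 0.0579, limma), and it was lost in 6 of the 8 leave-one-out fits, with adjusted p of 0.0967 to 0.155. These peaks began 0.449 to 0.649 kb downstream of the start and lay over the gene, 35.9% and 81.1% of which was covered in H3R2C and 32.3% and 27.6% in H3R8C. The body was also covered over 34.7% in H3R17C, where the nearest peak lay 1.049 kb from the start, just outside the window. In H3R26C it was covered over 18.2% and 14.1%, with the nearest peaks 1.949 and 1.699 kb away. In H3WT the nearest peaks were 10.4 and 9.85 kb away. The split of the mutants by start peak thus turned on where the 1 kb limit of the window fell, whereas body cover set H3WT apart from all 4 mutants. Fgf6, whose gene lies 44.7 kb from Fgf23, had cover in both H3R26C lists, 15.8% and 13.1%, and none elsewhere.

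The other 5 tested ligand genes did not pass the threshold between H3R2C and H3WT. Fgf9 (chr14:58070547-58112720, plus strand), a ligand of lung, gonad and skeletal mesenchyme, carried the strongest start signal of the ligands in H3WT, 3.36 and 3.33, and had 0.201 and 1.91 in H3R2C. All other lists held 2.49 to 3.94, so the H3R2C lists were the lowest, but they differed so much from each other that the log2 difference was -1.86 ± 0.67 (adjusted p = 0.0865, limma). The start peak of Fgf9 spanned 2.25 and 9.25 kb in H3R2C and 19.7 and 24.65 kb in H3WT. Body cover was 70.6% and 26.8% in H3R2C and 75.6% and 77.9% in H3WT. In H3R2C replicates 1 and 2 the low sum thus belonged to a short start peak, while most of the body stayed covered. Bmp7 (chr2:172868012-172940321, minus strand), a ligand of kidney, eye and brown fat development, had 0.309 and 0.557 in H3WT, 0 and 0.0650 in H3R8C, 0.352 in H3R17C and 0.351 and 1.25 in H3R26C. It had no start peak in either H3R2C list, where the nearest peaks were 45.3 and 47.1 kb away, and the log2 difference was -1.43 ± 0.46 (adjusted p = 0.0625, limma). Bmp10, given below, differed by -0.96 ± 0.29 (adjusted p = 0.0526, limma), and both Bmp7 and Bmp10 passed the threshold with the replicate number as a block. The remaining log2 differences were -0.69 ± 0.47 for Fgf8 and -0.30 ± 0.22 for Bmp3.

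Counted by peaks alone, of the 7 ligand starts with a peak in both H3WT lists 3 had none in either H3R2C list (Fgf12, Bmp7 and Gdf10), where 26.1% of all such starts did. In H3R26C it was 1 of 7 (Bmp10), where 9.37% of all such starts did, and in H3R8C 0 of 7, where 4.22% did. Of the ligand starts with no peak in either H3WT list, Fgf23 had one in both H3R2C lists and both H3R8C lists, where 1.09% and 0.824% of all such starts did. In H3R26C 0 gained a start peak in this way, where 0.922% of all such starts did. The losses in H3R2C fell on 1 of 3 Fgf starts and 2 of 4 Bmp and Gdf starts, numbers too small to set the families apart.

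In H3R26C against H3WT, H3K27me3 was higher over the start of Bmp3 and fell over that of Bmp10. Bmp3 had entered the test only through H3R26C, so a higher value there was built in. Bmp10 had entered through H3WT and H3R8C and not through H3R26C. Of the 10 tested ligand genes 1 was lower, where 5.16% of all windows were, and 1 was higher, where 5.94% of all windows were. Both were Bmp genes, and of the 5 Fgf genes 0 passed the threshold in limma, with 0 lower and 1 higher at an unadjusted p under 0.05, where 12% of all windows were lower and 13.5% higher.

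Bmp3 (chr5:98854415-98884396, plus strand) encodes a ligand of bone that antagonises the osteogenic Bmps. There the scaled signal was 0.814 and 0.727 in the H3R26C lists and 0.129 in H3WT replicate 3, and no peak was called at the start in the other 6 lists. The H3R26C lists were far above the rest, with a log2 difference from H3WT of 1.73 ± 0.22 (adjusted p = 0.00937, limma). The peaks spanned 13.7 and 5.50 kb and covered 30.6% and 16.6% of the gene in H3R26C, against 0% and 11.2% in H3WT. These values, and the call in all 8 leave-one-out fits (adjusted p of at most 0.0405, limma), are those of a gene that entered through the group where it was high. The median difference of the 142 tested windows on chromosome 5 was 0.11. The call was lost with unscaled signal (adjusted p = 0.159) and with the maximum signal (adjusted p = 0.0765).

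Bmp10 (chr6:87428994-87437677, plus strand), a ligand of the developing heart, went the opposite way. Its scaled signal was 0.487 and 0.330 in H3WT, 0.199 and 0 in H3R2C, 0.0787 and 0.0694 in H3R8C and 0.332 in H3R17C, and both H3R26C lists had no start peak and no cover. All H3R2C, H3R8C and H3R26C values were below both H3WT values. In H3R2C replicate 3 the nearest peak lay 1.157 kb from the start, just outside the window. The log2 difference of H3R26C from H3WT was -1.39 ± 0.29 (adjusted p = 0.0375, limma), and the lower H3WT value was 2.80 times the lowest signal of a called peak in H3R26C. The call was kept without either H3R2C list and lost in the other 6 leave-one-out fits, with adjusted p of 0.0956 to 0.156. Body cover was 45.0% and 53.6% in H3WT, 34.6% and 34.0% in H3R2C and 25.3% and 27.1% in H3R8C, and in H3R26C the nearest peaks were 13.7 and 18.2 kb away.

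Gdf6 had its highest values in H3R26C, but the log2 difference from H3WT of 0.87 did not pass the threshold (adjusted p = 0.0821, limma). Its body cover was 71.9% and 55.0% in H3R26C and 13.0% to 33.0% in all other lists, so the H3R26C lists stood above the rest. Fgf8 (chr19:45736798-45742915, minus strand), the ligand of limb and brain organisers, had 0.442 and 0.761 in H3R26C, 0.389 and 0.440 in H3R8C and 0.405 in H3WT replicate 3, and no start peak in the other 4 lists. In 1 of these, that of H3R17C, the nearest peak lay 1.115 kb from the start, just outside the window, and 41.7% of the body was covered. The log2 differences of Fgf8 from H3WT were 1.05 in H3R26C and 0.72 in H3R8C, and neither passed the threshold (adjusted p = 0.232 and 0.697, limma), since the H3WT lists themselves differed.

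In H3R8C against H3WT, 0 of the 10 tested ligand genes passed the threshold in limma, where 1.28% of all windows were lower and 2.20% higher. At an unadjusted p under 0.05, 2 were lower (Bmp7 and Bmp10) and 0 higher, where 5.48% of all windows were lower and 6.76% higher. The log2 differences ran from -1.26 for Bmp7 (adjusted p = 0.332, limma) to 0.72 for Fgf8, with a median of -0.28 for the 10 genes and of 0 for all windows. Gdf10 was at -0.30 (adjusted p = 0.788, limma), with body cover of 64.2% and 61.8%.

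Set directly against each other, H3R2C and H3R26C differed at 8 of the 10 tested ligand genes. H3R2C was lower at 6 of 10, where 26.8% of all windows were, and higher at 2, where 17% of all windows were. The 6 were Gdf10, Bmp3, Gdf6, Fgf12, Bmp7 and Fgf8, and the 2 were Fgf3 and Fgf23. The log2 difference was -3.07 ± 0.25 for Gdf10 (adjusted p = 0.000623, limma), -2.03 ± 0.22 for Bmp3 (adjusted p = 0.00133), -1.80 ± 0.25 for Gdf6 (adjusted p = 0.00253) and -1.60 ± 0.24 for Fgf12 (adjusted p = 0.00352), where the median of chromosome 16 was -0.56. Fgf3 was higher in H3R2C by 1.53 ± 0.25 (adjusted p = 0.00459, limma). These 5 calls were kept in all 8 leave-one-out fits. Under other settings, Fgf3 lost its call with maximum signal (log2 difference 0.27, adjusted p = 0.0848, limma) and with unscaled signal (adjusted p = 0.174), and Gdf6 lost it with unscaled signal (adjusted p = 0.0739).

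Bmp7, at -1.92 ± 0.46 (adjusted p = 0.0172, limma), lost its call without any 1 list of H3R2C or H3R8C (adjusted p of at least 0.0579). Fgf8, at -1.74 ± 0.47 (adjusted p = 0.0269, limma), and Fgf23, at 1.30 ± 0.35 (adjusted p = 0.0262), each lost it in 6 of the 8 fits, with adjusted p of up to 0.156 and 0.139. Fgf9 was at -2.04 ± 0.67 (adjusted p = 0.0507, limma) and Bmp10 at 0.42 (adjusted p = 0.290), neither past the threshold. Where H3R2C had no start peak, the lower H3R26C value was set against the lowest signal of a called peak in H3R2C. It was 11.3 times that signal for Gdf10, 5.35 times for Bmp3, 2.82 times for Fgf12 and 2.59 times for Bmp7. Bmp3, Bmp7, Fgf8, Fgf12 and Gdf10 entered the test through H3R26C and not H3R2C, and Fgf23 through H3R2C and not H3R26C. Their directions here were fixed in part by how they entered.

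**Figure D4:**
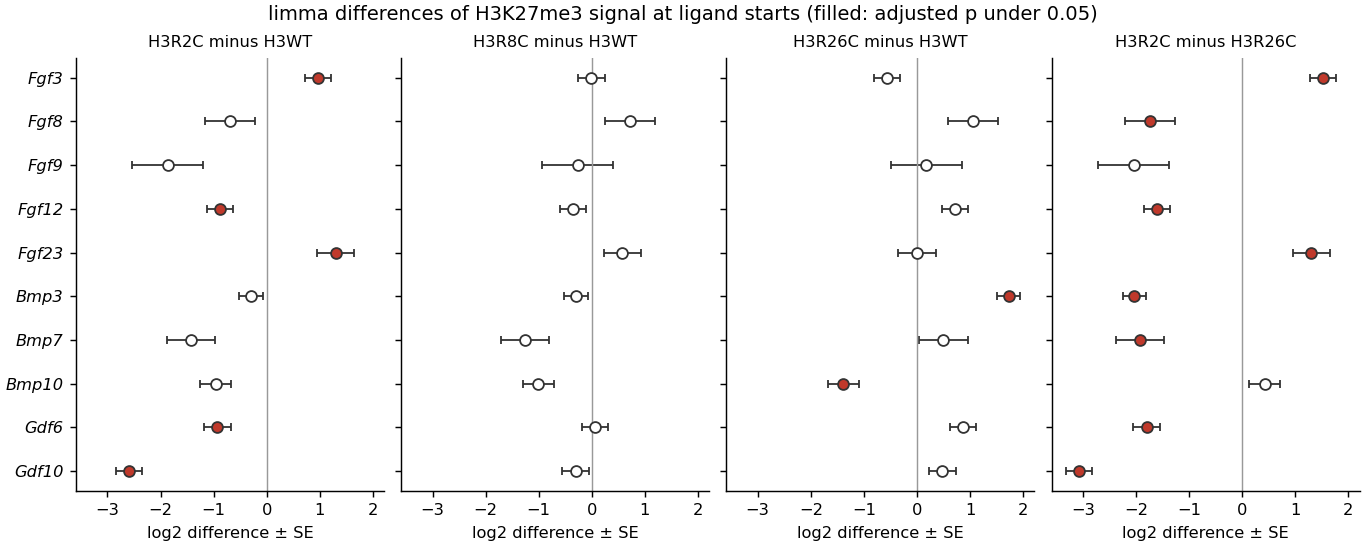
Log2 difference in scaled H3K27me3 signal over the start (log2 of scaled signal + 0.25) for the 10 tested ligand genes, as points with standard errors from limma (filled at an adjusted p under 0.05), in the comparisons of each mutant with H3WT and of H3R2C with H3R26C. Gdf10 is at -2.59 and Fgf3 at 0.96 in H3R2C against H3WT, and Bmp3 is at 1.73 in H3R26C.

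Most ligand genes carried no mark at the start in any genotype. Of the 23 genes with no start peak in any list, 17 also had no peak anywhere in the body, and for 7 of these (Fgf7, Fgf10, Fgf17, Fgf21, Bmp4, Bmp5 and Gdf11) the nearest peak was at least 100 kb away in every list. Bmp4 (chr14:46383520-46390669, minus strand), a ligand of mesoderm and mesenchyme, had its nearest peak 1050.83 to 1227.53 kb away. The distances of Bmp4 hardly varied between genotypes, with a median of 1054.33 kb. Bmp8a and Bmp8b are related copies, and whether any reads matched both was not examined. Neither had a start peak, and Bmp8b was touched over 7.43% of its body in H3R8C replicates 1 and 2.

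Of the 6 genes with cover but no start peak (Fgf1, Fgf6, Fgf20, Bmp6, Bmp8b and Gdf2), Fgf20 was the only one covered in every list. Fgf20, a ligand of the inner ear and kidney, was covered over 38.2% to 52.4% of its body, and another of its transcript starts had a peak in all 9 lists. Bmp6, a ligand of iron balance and cartilage, had 2.58% and 4.41% cover in H3WT, 0% in both H3R2C lists, and 1.03% and 1.22% in H3R26C. Cover without a start peak in any list was seen for 26.1% of these 23 ligand genes and for 9.21% of all genes of that kind. The variable starts not tested were Fgf4, Fgf5, Fgf11, Fgf14 and Gdf7, none with a peak in both lists of a genotype. Fgf5 had its start peak in H3R26C replicate 3 (0.439), Gdf7 in H3R26C replicates 1 and 2 (0.132), Fgf11 in H3WT replicate 3 and H3R8C replicate 3, and Fgf14 in replicates 1 and 2 of H3WT, H3R8C and H3R26C.

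Lists of the tagged histone were read beside those of the mark. An HA peak lay over the start in at least 1 of the 10 HA lists for 15 of the 38 ligand genes, or 39.5% against 42.8% of all genes. Of these 15, 5 also had an H3K27me3 start peak in some list (Fgf3, Fgf8, Fgf9, Fgf11 and Bmp10) and 10 had none. Of the 9 ligand genes with a call in any comparison above, 6 (Gdf10, Gdf6, Fgf12, Fgf23, Bmp3 and Bmp7) had no HA peak at the start in any list. The same share over all called windows was not counted, so this number does not set the ligand genes apart. Among the ligand genes with an H3K27me3 start peak 33.3% had an HA peak, and among those without 43.5% did; the same shares over all genes were 37.1% and 44.0%.

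By genotype, an HA peak lay over the start in both lists for 6 ligand genes in H3WT (Fgf11, Fgf17, Fgf22, Bmp4, Bmp10 and Gdf15), against 9.18% of all genes. In H3R8C it was 2 (Fgf17 and Gdf15), against 4.89%, and in H3R17C it was Fgf22 alone, against 3.48%. In H3R2C and in H3R26C it was 0 of 38, against 7.43% and 6.45% of all genes. The HA lists of H3WT differed in kind from the rest. They held 15344 and 37907 peaks, against 46398 to 52083 in the mutants, and in the shorter of these lists the median peak spanned 10.7 kb. The paper lists more reads for replicates 2 and 3 of anti-HA in H3WT than for any mutant anti-HA sample. The part of these differences in the counts of HA peaks was not tested.

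Other genes of the pathways were counted by lists of receptors, antagonists, feedback inhibitors and targets, drawn up with results of these data known. None of 7 Fgf receptor genes entered the test, where 2812 of all 21911 protein-coding genes did. In H3R2C against H3WT 17.9% of all windows were lower and 11.3% higher. Of 9 Bmp and activin receptor genes 3 entered, and in H3R2C against H3WT Acvrl1, a receptor for Bmp9 and Bmp10, was higher by 1.15 (adjusted p = 0.00162, limma). Acvrl1 had a start peak in H3R2C lists only and entered through them, so this direction was built in. Bmpr1b was lower by a log2 difference of -1.37 (adjusted p = 0.0134, limma). It had entered through H3WT, H3R8C and H3R26C and not through H3R2C, so its direction was built in in part. Of 14 antagonists 3 entered, and Nog, which encodes noggin, fell by 2.15 on the log2 scale in H3R2C (adjusted p = 0.00193, limma). Of 11 targets 1 entered, Msx2, which fell by 1.73 in H3R2C (adjusted p = 0.00554, limma). Of 8 feedback inhibitors of Fgf signalling 1 entered, with no call. In H3R26C against H3WT none of these lists had a call, where 5.16% of all windows were lower and 5.94% higher. With so few genes tested, this does not set the lists apart from all windows. Of 15 related ligands not in the set 3 entered, and Fgf13, another Fgf homologous factor, was higher by 0.92 in H3R8C (adjusted p = 0.00688, limma), the group through which alone it had entered, so this direction too was built in. For Acvrl1 and Fgf13 the other tested groups had no peak and added no spread, so these p-values can be too small.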

How the data were processed

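CUT&RUN was performed on C3H 10T1/2 cells of 5 genotypes. Single-end reads were aligned to mm10 with Rsubread by the authors, and SEACR 1.3 (stringent, normalised, threshold 0.01) called peaks in each sample. Each deposited list holds peak positions on a grid of 50 bp, a total signal (coverage summed over the peak) and a maximum signal, neither scaled to depth. At such a threshold SEACR keeps a fixed top fraction of blocks, so a peak missing from a list can reflect the level of that list as well as a weaker mark. The treatment of duplicates and of reads with several matches was not given in the sources used here. Because the values are signal and not reads, limma on log2 values was used in place of the count model of the study. The IgG and anti-H3K4me3 samples (30 of 60) were not analysed here. The submitters' processing notes also name ChIPseeker 1.28.3.

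Groups came from the sample titles. Identical lists of a group were counted as 1 replicate, which left 2 per group, and for H3K27me3 in H3R17C 1. Gene starts and bodies of 21911 protein-coding genes were those of GENCODE for GRCm38. The signal of a start was summed over the peaks overlapping 1 kb on either side, divided by the median over 886 windows with a peak in all 8 lists of the fit. With a pseudocount of 0.25, limma 3.58.1 (lmFit, eBayes with trend, R 4.3.3) was fitted to 2812 windows, with genotype as the only term and 1 shared spread. Tables were built with Python 3.11.15, pandas 2.3.3 and numpy 2.4.6. The fit was also run on simulated normal values. These held neither the entry filter nor the shared value of lists with no peak, so that run does not bear on either. The members and lists were chosen with earlier results of these data known. Values in every list are given for ligand genes past the adjusted threshold of 0.05 in any fit, those with a start peak in both lists of H3WT and neither of a mutant or the reverse, and Bmp4. Values for Fgf4, Fgf9 and others outside that rule were chosen after they were seen. Promoters were printed for the 5 of these genes with the lowest adjusted p and an entry in the RefSeq table. Alternatives covered the window, peak threshold, overlap, scaling, pseudocount, filters, maximum signal, merged regions, the replicate number as a block, all 3 labelled replicates and leaving out each list.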

Additional observations from a re-analysis of the deposited data

Results flagged for a closer look

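The H3R2C and H3R26C groups, set against H3WT, differed from each other in the direct comparison at 8 ligand starts, which is a test of the difference between the effects since both share the H3WT lists. The log2 difference of H3R2C from H3R26C by limma was -3.07 for Gdf10, -2.03 for Bmp3, -1.92 for Bmp7, -1.80 for Gdf6, -1.74 for Fgf8 and -1.60 for Fgf12, and it was 1.30 for Fgf23 and 1.53 for Fgf3. These values do not show which of the groups changed. Bmp3, Bmp7, Fgf8, Fgf12, Fgf23 and Gdf10 had entered the test through a group where they were high. No group had the 4 lists that a check for outlying lists needs.

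The list of H3R17C replicate 1, kept out of the comparisons because its file was named for another mark than the label, had a peak over 5 ligand starts, 4 of Fgf genes and 1 of a Bmp or Gdf gene. This list had peaks over 38.6% of all gene starts, against 7.62% to 11.9% in the 9 H3K27me3 lists used. The anti-H3K4me3 and IgG samples were not analysed here.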

How the results depend on the processing

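Counts of ligand starts past the threshold rested on 2 lists per group and moved with most settings. In H3R2C against H3WT the 3 lower starts became 6 with scaling by the median of all peaks and with all 3 labelled replicates, 5 with all transcript starts and with merged regions, 1 with windows that had a peak in any list, 0 with windows that had one in every list, and 1 to 3 with 1 list left out. The 2 higher starts became 1 with a pseudocount of 1, unscaled signal, the median of all peaks, windows with a peak in any list, signal inside the window, maximum signal, the upper 50% of peaks, an overlap of 50% and the replicate block, 0 with windows with a peak in every list, and 0 to 3 with 1 list left out. Fgf3 reversed to -0.017 with signal inside the window and to -0.11 with maximum signal. In H3R8C, 0 lower became 1 with merged regions and the upper 50% of peaks and 2 with all labelled replicates, 0 higher became 1 with maximum signal, and both gave 0 to 1 with 1 list left out. In H3R26C, 1 lower became 0 with a pseudocount of 0.05, unscaled signal, both window filters, signal inside the window and maximum signal, 2 with merged regions and with all labelled replicates, and 0 to 1 with 1 list left out. In H3R26C, 1 higher became 0 with unscaled signal, maximum signal and windows with a peak in every list, 3 with merged regions, 5 with all labelled replicates, and 1 to 3 with 1 list left out. Between H3R2C and H3R26C, 6 lower became 2 with windows with a peak in every list and 4 to 6 with 1 list left out, and 2 higher became 1 with unscaled signal, that filter, maximum signal, the upper 50% of peaks and an overlap of 50%, 4 with all labelled replicates, and 1 to 4 with 1 list left out. The filter on every list kept 886 windows and that on any list 3807, against 2812, and the setting with all labelled replicates counts identical lists as separate. The cause of the other shifts was not tested.

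The family difference in percentage points (Fgf less Bmp and Gdf) became, with windows of 0.5 kb, 0.278 in H3WT, 6.67 in H3R2C and 5.56 in H3R8C. With windows of 2.5 kb it became -5.28, 0.556, 4.72, 2.78 in H3R17C and 7.50 in H3R26C. With all transcript starts it became 7.50, 14.2, 23.1, 7.78 and 10.0 in the same order of genotypes. With the upper 50% of peaks it became -4.72 in H3WT, 6.94 in H3R2C and 6.39 in H3R8C, and with an overlap of 50% 4.17 in H3R2C and -1.67 in H3R17C. With single lists it ran from -2.78 to -2.22 in H3WT, 8.89 to 9.44 in H3R2C, 7.78 to 13.3 in H3R8C and -2.78 to 2.78 in H3R26C.

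Over all windows, scaling by the median of all peaks shifted the median log2 difference to -0.25 in H3R2C and raised the share of lower calls from 61.3% to 72.3%, and unscaled signal shifted it to -0.30 in H3R2C and -0.15 in H3R26C, where the lower share went from 46.5% to 58.3%. The deviations of lists with the same replicate number had correlations across windows from -0.044 to 0.149. Since 1 list stood for 2 replicate numbers, its true number is unknown, and these values cannot show whether the numbers pair the samples. With the replicate block 1 ligand start was higher in H3R2C against H3WT (Fgf23) and 4 were lower (Gdf10, Fgf12, Bmp7 and Bmp10). Of the lower ones, 2 were shared with the fit without the block. Gdf6 and Fgf3 lost their calls and Bmp7 and Bmp10 gained them. The replicate block kept the same ligand calls in the other 3 comparisons. The precision is limited by 2 lists per group, and a mark below the level of a list was not detectable.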

Other observations

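Some ligand genes with no peak of their own had a nearest peak whose distance differed between genotypes. For Bmp2, a bone-inducing ligand, the nearest H3K27me3 peak lay 33.5 and 37.9 kb from the gene start in the H3R26C lists and 606 to 642 kb away in the other 7. For Gdf15, a stress-induced ligand, it lay 9.66 and 8.91 kb away in H3WT and at least 102 kb away elsewhere. These are distances to called peaks, chosen after the values were seen, and they were not tested.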
